A study of Homo sapiens with 5 samples.

Results

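The genes described here are 10 transcripts that report activity of the RAS-ERK (MAPK) pathway, namely the dual-specificity phosphatases DUSP4, DUSP5 and DUSP6, the Sprouty genes SPRY2 and SPRY4, the related inhibitors SPRED1 and SPRED2, the transcription factors ETV4 and ETV5, and PHLDA1. The list was chosen with earlier results of these data known, so its counts beside shares of all entries are a description. The genes were picked by gene symbol, and where a symbol had several entries in the expression table the one with the highest mean over the libraries was taken. This gave 9 genes with an entry of their own among the 37181 entries of the table. No entry carries the name ETV5, whose transcripts were joined to those of a neighbouring gene and are described apart.

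RNA sequencing compared HCC827 cells with their gefitinib-resistant derivative HCC827/GR. HCC827 is a human lung adenocarcinoma line that depends on a mutated EGFR, and the labels give an exon 19 deletion for both groups. HCC827/GR cells came from the parental cells after more than 6 months under stepwise increasing doses of gefitinib, an inhibitor of the EGFR kinase, whereas the HCC827 group was not selected. The libraries were replicates 1, 2 and 3 of HCC827/GR and replicates 2 and 3 of HCC827. Whether HCC827/GR was 1 clone or a mixed population, and whether gefitinib was in the medium at harvest, is not given in the sources used here. Nothing says that replicates were separate cultures, so the p-values measure only the spread between these libraries, which may be technical. Levels are in FPKM (fragments per kilobase of transcript, scaled to the mapped fragments of the library), which corrects for transcript length. The depth behind them is unknown, since FPKM carries no read counts, and ratios of low values gave only a rough relative depth between 0.922 and 1.26 with HCC827/GR replicate 1 set to 1. Between 8896 and 9803 entries were listed at 0 in each library. Of the markers of cell type, KRT8, an epithelial keratin, was at 127 FPKM or more in every library, while PTPRC, which marks leukocytes, reached at most 0.0228 FPKM. The summed level of the 5 epithelial markers with an entry was lower in the resistant cells, between 443 and 573 FPKM against 1060 and 1180 FPKM, and all 5 were lower in every HCC827/GR library. The 6 fibroblast markers summed to between 0.762 and 1.16 FPKM in HCC827/GR cells and to 0.678 and 0.901 FPKM in HCC827 cells. For leukocytes the sums were between 33.1 and 38.6 FPKM and 31.1 and 39.3 FPKM, almost all of it CD68.

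In the RAS-ERK pathway, an activated receptor tyrosine kinase such as EGFR loads RAS with GTP, RAS activates the RAF, MEK and ERK kinases in turn, and ERK enters the nucleus and changes transcription. Several genes that ERK switches on act back on the pathway, so their transcripts serve as a readout of its output. Dual-specificity phosphatases remove the activating phosphates from MAP kinases, Sprouty and SPRED proteins restrain signalling between the receptor and RAF, and the ETS-family factors ETV4 and ETV5 carry the signal to further genes. In EGFR-mutant lung cancer cells this pathway is a main route downstream of the mutated receptor.

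Promoter sequence was held for 6 of the genes (DUSP6, SPRY2, SPRY4, SPRED1, SPRED2 and PHLDA1), as 9 windows of RefSeq on GRCh38.p14 that run from 250 bases before to 50 bases after an annotated start. Both strands were searched for 3 motifs of factors that act below MAP kinases. The ETS motif CCGGAAGT and the cAMP response element TGACGTCA were in none of the 9 windows and in 4.14% and 1.85% of all 35116 promoters. The AP-1 motif TGANTCA, bound by FOS and JUN proteins, was in 7.71% of all promoters and in 1 of the 9 windows, that of SPRED2. A shorter ETS core, CGGAAG, was added after the first search and was in 3 of the 9 windows against 19.5% of all promoters. The core is contained in the longer ETS motif. These matches are shown with the motif in capitals because they are the ones found, and a match in these letters does not make a binding site. Each runs 5′ to 3′ on the minus strand, which is the strand of the gene, and CTTCCG is the core read on the opposite strand.
SPRED2, AP-1, chr2:65366767-65366796: ctaaccctcggaTGACTCAtccggtacaat
SPRED2, AP-1, chr2:65366729-65366758: tttgtcaaggagacTGAATCAtatatgggg
SPRED2, ETS core, chr2:65432550-65432579: gctgggaagacgtcatcgCTTCCGccctac
DUSP6, ETS core, chr12:89352546-89352575: cggcaacagcccCTTCCGcagcacgctcat
PHLDA1, ETS core, chr12:76031806-76031835: ggggaacgagcgCGGAAGcaagtgggcggc
The ETS core of DUSP6 begins 62 bases before the annotated start and that of PHLDA1 47 bases before it. Both AP-1 matches of SPRED2 belong to the same internal start, 1 of them directly at it.

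The feedback and output genes lay lower in the resistant cells or overlapped between the groups. ETV4 fell to about 1 part in 5 of its parental level. It was the only one of the 9 genes with their own entry that passed an adjusted p of 0.05. For 7 of the 9 genes with their own entry (DUSP4, DUSP6, SPRY2, SPRY4, SPRED1, SPRED2 and ETV4), every HCC827/GR library lay under both HCC827 libraries, and for DUSP5 and PHLDA1 the groups overlapped. The same order was found in 18.7% of all 36011 entries with any value above 0 and in 23.4% of the 16189 entries averaging 0.5 FPKM or more. None of the 9 had the opposite order, whose share over all entries is not given here. The fitted change was below 0 in 9 of 9 genes, although it turned positive for PHLDA1 under another scaling of the libraries and for both DUSP5 and PHLDA1 with single libraries left out, and it was below 0 in 51.0% of all entries.

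Tests were made with limma on log2(FPKM + 1), two-sided, over the entries averaging 0.5 FPKM or more, which 7 of the 9 genes reached. Of these 7, SPRY2 and the SPRED2 entry reached it only through the HCC827 libraries, with HCC827/GR means of 0.426 and 0.213 FPKM. DUSP6 and SPRY4 had means of 0.491 and 0.48 FPKM and are given from the same fit without that limit. Fold changes (with their standard error, SE) set HCC827/GR against HCC827. They are differences of log2(FPKM + 1), which understates changes of genes near or under 1 FPKM, and adjusted p-values are by Benjamini-Hochberg over all entries tested. Of the 7 genes, 1 had an adjusted p under 0.05 and it was lower, where 5.71% of all entries tested were lower and 11.0% passed in either direction. Without the limit on low values ETV4 alone passed of the 9, against 2.10% of all entries that were lower. At a 2-fold or larger change with an unadjusted p under 0.05, ETV4 and SPRED2 passed, against 3.97% of entries that were lower by this rule. An unadjusted p under 0.05 was reached by 4 of the 7 genes, against 13.8% of entries that were lower, and by 6 of the 9 without the limit, against 10.4%. SPRED2 is in all of these unadjusted counts by an entry of 1 assembled transcript. The entry with the annotated SPRED2 transcripts met neither rule (log2 fold change -0.32, unadjusted p = 0.0786, limma). Exact permutation of the libraries (two-sided) gave p = 0.1 for 6 genes, the smallest p that 3 libraries against 2 allow. These are bulk libraries, so fewer expressing cells and less RNA per cell cannot be told apart. The epithelial markers moved with these differences, and their part in them was not tested.

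**Figure D1:**
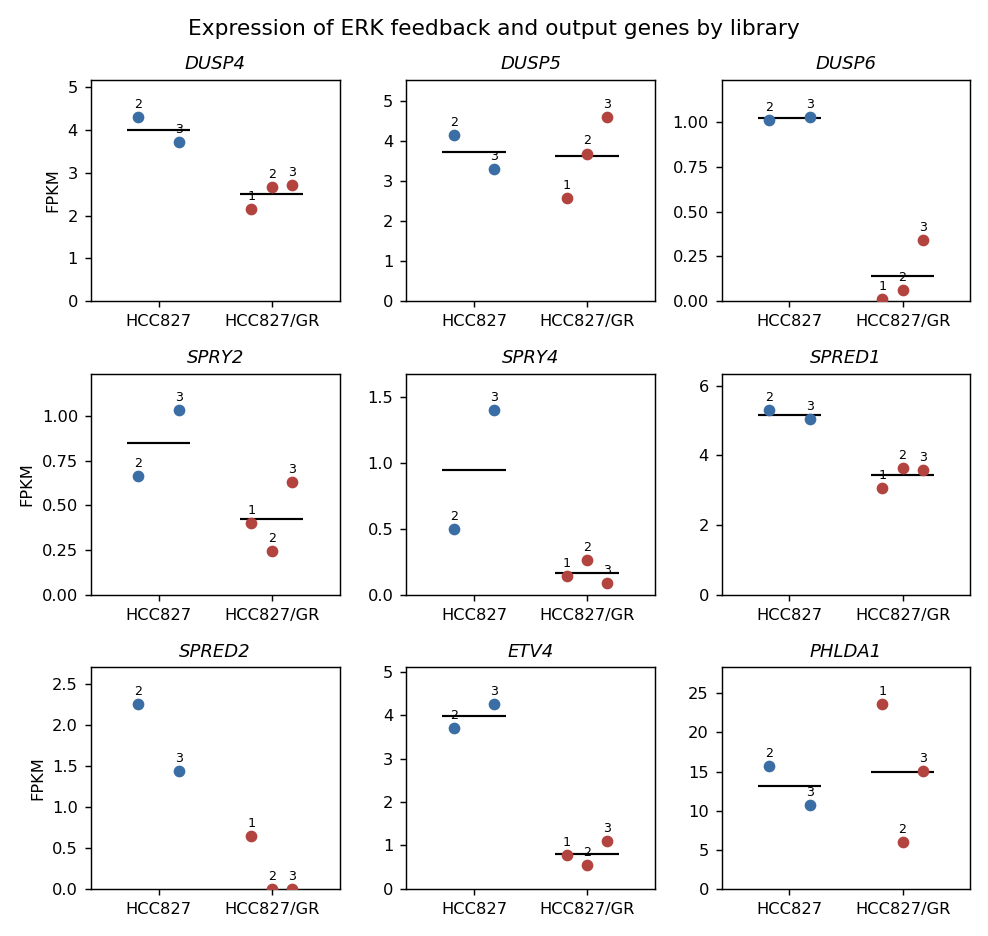
Each panel plots 1 gene, with FPKM on the vertical axis from 0 and the groups on the horizontal axis. Points are libraries with their replicate number, and black lines are group means, left out for SPRED2 because some of its values are listed at 0. In all panels but those of DUSP5 and PHLDA1 the HCC827/GR points lie under both HCC827 points.

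Among the dual-specificity phosphatases, DUSP6 was lower in each resistant library, DUSP4 was moderately lower, and DUSP5 showed no separation. DUSP6, a cytoplasmic phosphatase that acts on ERK in particular and is often used as a readout of ERK activity, lies at chr12:89347232-89353271 on the minus strand of GRCh38 (this and the other gene positions are from GENCODE release 29). AC024909.2 overlaps it on the opposite strand and has no entry of its name. The level of DUSP6 was 0.0139, 0.0621 and 0.34 FPKM in HCC827/GR replicates 1, 2 and 3 and 1.01 and 1.03 FPKM in HCC827 replicates 2 and 3. The parental libraries agreed closely, while the resistant ones spread widely below them. The group means were 0.139 ± 0.176 FPKM (SD, n = 3) and 1.02 ± 0.0112 FPKM (SD, n = 2), so the parental mean was 7.35 times the resistant mean. On the log2 scale the difference was -0.84 (SE 0.17, adjusted p = 0.0888 with no limit on low values, limma), which did not pass. With a pseudocount of 0.1 in place of 1 the difference was -2.48, since DUSP6 lies where the added 1 FPKM weighs most.

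The 5 tested entries whose pattern over the 5 libraries lay closest to that of DUSP6 were CDKN1A, AC079921.1, NIPAL1, ELF4 and PLSCR1. Likeness was the root mean square difference of log2(FPKM + 1) after each entry was centred on its own mean, and it was 0.0391 for CDKN1A and 0.0682 for PLSCR1. CDKN1A, which encodes the cell cycle inhibitor p21, stood at 0.461, 0.556 and 0.834 FPKM in HCC827/GR replicates 1, 2 and 3 and 1.87 and 2 FPKM in HCC827. The entry named ELF4, after another ETS-family factor, holds 1 assembled transcript without an Ensembl identifier and had 0.315, 0.34 and 0.572 FPKM in the resistant and 1.37 and 1.35 FPKM in the parental libraries. In both entries, as for DUSP6, the resistant libraries lay under the parental ones and HCC827/GR replicate 3 was the highest of them. The likeness is one of log2(FPKM + 1) and not of ratios. The parental mean was 3.13 times the resistant mean for CDKN1A and 3.32 times for ELF4, against 7.35 times for DUSP6. The entries were found by this likeness, so their values are a description.

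DUSP4, a nuclear phosphatase of ERK and other MAP kinases, lies on chromosome 8 from 29333064 to 29350668. It measured 2.15, 2.67 and 2.71 FPKM in the resistant libraries and 4.31 and 3.71 FPKM in the HCC827 libraries. No library of one group reached the other, and the means were 2.51 ± 0.312 FPKM (SD, n = 3) and 4.01 ± 0.426 FPKM (SD, n = 2). With a log2 fold change of -0.51 (SE 0.12) its adjusted p of 0.0707 did not pass.

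DUSP5, a nuclear phosphatase that acts on ERK and holds it in the nucleus, lies at chr10:110497838-110511544. Its HCC827/GR libraries had 2.58, 3.69 and 4.61 FPKM and its HCC827 libraries 4.14 and 3.31 FPKM. The resistant libraries thus spanned the parental ones, with means of 3.63 ± 1.02 FPKM (SD, n = 3) and 3.72 ± 0.587 FPKM (SD, n = 2). The log2 fold change came to -0.05 (SE 0.22 and adjusted p = 0.918), and it was 0.13 without HCC827/GR replicate 1 and 0.08 without HCC827 replicate 2, so no direction is given for DUSP5. Of the other genes with an entry of their own, PHLDA1 was the one that also changed sign under an alternative.

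Both Sprouty genes, inhibitors that ERK signalling induces and that hold back RAS activation by receptor kinases, were expressed at low levels and lay lower in the resistant libraries without passing the test. SPRY2 (chr13:80335976-80340951) stood at 0.401, 0.246 and 0.63 FPKM in HCC827/GR replicates 1, 2 and 3 against 0.664 and 1.03 FPKM in HCC827 replicates 2 and 3. The highest resistant and the lowest parental library were close, and the means were 0.426 ± 0.193 FPKM (SD, n = 3) and 0.849 ± 0.262 FPKM (SD, n = 2). Its log2 fold change came to -0.38 (SE 0.19 and adjusted p = 0.285).

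SPRY4 (chr5:142310427-142326455) measured 0.145, 0.263 and 0.0915 FPKM in the resistant libraries and 0.498 and 1.4 FPKM in the HCC827 libraries. The parental libraries differed from each other by more than the resistant ones did, with means of 0.167 ± 0.088 FPKM (SD, n = 3) and 0.95 ± 0.639 FPKM (SD, n = 2), a ratio of 5.7. The log2 fold change came to -0.70 (SE 0.24 and adjusted p = 0.239 with no limit on low values). Its size depended on the parental library kept, at -1.04 without HCC827 replicate 2 and -0.36 without HCC827 replicate 3. An antisense gene, SPRY4-AS1, overlaps SPRY4 on the opposite strand, and whether reads were counted by strand is not given in the sources used here. The antisense entry had 0.102, 0.108 and 0.147 FPKM in HCC827/GR and 0.377 and 0.128 FPKM in HCC827 libraries, so its groups overlapped.

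SPRED1 was lower by about the same amount as DUSP4, and the SPRED2 entry had most of its signal in the parental libraries. SPRED1, which binds the RAS regulator neurofibromin and brings it to the membrane to switch RAS off, lies at chr15:38252326-38357249. The HCC827/GR libraries had 3.08, 3.65 and 3.58 FPKM and the HCC827 libraries 5.29 and 5.04 FPKM. Spread within each group was small beside the gap between them, with means of 3.44 ± 0.31 FPKM (SD, n = 3) and 5.16 ± 0.174 FPKM (SD, n = 2). At a log2 fold change of -0.48 (SE 0.10) its adjusted p of 0.0544 fell just short, and over 15 alternatives it ran from 0.0505 to 0.195.

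SPRED2, a relative of SPRED1 with a similar role, was split over several entries of the table. The entry chosen by name and mean holds 1 assembled transcript without an Ensembl identifier, and it had 0.639 FPKM in HCC827/GR replicate 1, was listed at 0 in HCC827/GR replicates 2 and 3, and had 2.25 and 1.44 FPKM in HCC827. Its log2 fold change came to -1.26 (SE 0.30 and adjusted p = 0.0665). Without HCC827 replicate 2 the log2 fold change was -1.05, with an adjusted p of 0.249 and no longer an unadjusted p under 0.05. A second entry of the same name had 0.933 FPKM in HCC827/GR replicate 1 and was listed at 0 elsewhere, and with both summed the log2 fold change was -1.04 (adjusted p = 0.249). The 8 annotated SPRED2 transcripts (gene at chr2:65310851-65432637, minus strand) lie in an entry named after AC012370.1, a gene that overlaps SPRED2 on the same strand. This entry had 3.15, 3.26 and 4.24 FPKM in HCC827/GR and 4.38 and 4.9 FPKM in HCC827 libraries. Its groups did not overlap but came close, and the log2 fold change of -0.32 (SE 0.14, adjusted p = 0.24) was much smaller than that of the chosen entry. The larger difference was thus measured on 1 assembled transcript, and the annotated transcripts together showed the smaller one.

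ETV4 fell in the resistant cells, with the largest fitted difference of the 9 genes, although DUSP6, SPRY4 and the SPRED2 entry had larger ratios of means and, with a pseudocount of 0.1, DUSP6 (-2.48) and SPRED2 (-3.29) passed ETV4 (-2.20) in size. It encodes an ETS-family transcription factor of the PEA3 group that ERK signalling induces, and it lies at chr17:43527844-43579620 on the minus strand. HCC827/GR replicates 1, 2 and 3 had 0.781, 0.553 and 1.1 FPKM, and HCC827 replicates 2 and 3 had 3.71 and 4.25 FPKM. The lowest parental library was well above the highest resistant one, and the means were 0.812 ± 0.276 FPKM (SD, n = 3) and 3.98 ± 0.384 FPKM (SD, n = 2), a ratio of 4.9. The log2 fold change came to -1.47 (SE 0.16 and adjusted p = 0.0122). The call was lost without HCC827/GR replicate 1 (adjusted p = 0.0558), without HCC827 replicate 2 (0.0739) or without HCC827 replicate 3 (0.0778), and with a library-size covariate (0.0714), in a range from 0.0115 to 0.133 over 15 alternatives, while the log2 fold change stayed between -2.20 and -1.36. DHX8, which overlaps ETV4 on the opposite strand, had 9.27, 9.68 and 9.39 FPKM in HCC827/GR and 9.86 and 10.3 FPKM in HCC827 libraries, a log2 fold change of -0.08.

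ETV5, the closest relative of ETV4 in this list, could not be measured by itself. Its gene lies at chr3:186046308-186110318 beside DGKG, a diacylglycerol kinase, and the assembly put 12 transcripts of ETV5 and 3 of DGKG into 1 entry. This joint entry measured 0.907, 1.15 and 1.95 FPKM in the resistant libraries and 2.35 and 2.04 FPKM in the HCC827 libraries. The resistant libraries lay lower without overlap, but replicate 3 came close to the parental values. Its log2 fold change came to -0.47 (SE 0.22 and adjusted p = 0.246), and the shares of ETV5 and DGKG in it cannot be told apart.

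PHLDA1, a pleckstrin homology-like domain protein whose transcript follows ERK activity, was the most abundant of the genes and did not separate the groups. It lies at chr12:76025447-76033932, and it stood at 23.6, 5.94 and 15.1 FPKM in HCC827/GR replicates 1, 2 and 3 and 15.7 and 10.7 FPKM in HCC827 replicates 2 and 3. The resistant libraries held both the highest and the lowest value, and the means were 14.9 ± 8.82 FPKM (SD, n = 3) and 13.2 ± 3.53 FPKM (SD, n = 2). A log2 fold change of -0.0015 (SE 0.57, adjusted p = 0.999) has a wide error, and it moved to 0.51 without HCC827/GR replicate 2, to 0.25 without HCC827 replicate 2 and to 0.01 with median-ratio scaling of the libraries. AC011611.3 overlaps PHLDA1 on the opposite strand and had 12.9, 13 and 16.6 FPKM in HCC827/GR and 20.3 and 20.6 FPKM in HCC827 libraries. Its HCC827/GR libraries lay under the HCC827 ones, but it did not pass (log2 fold change -0.51, adjusted p = 0.0921, limma). As for SPRY4, whether reads were counted by strand is not given.

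**Figure D2:**
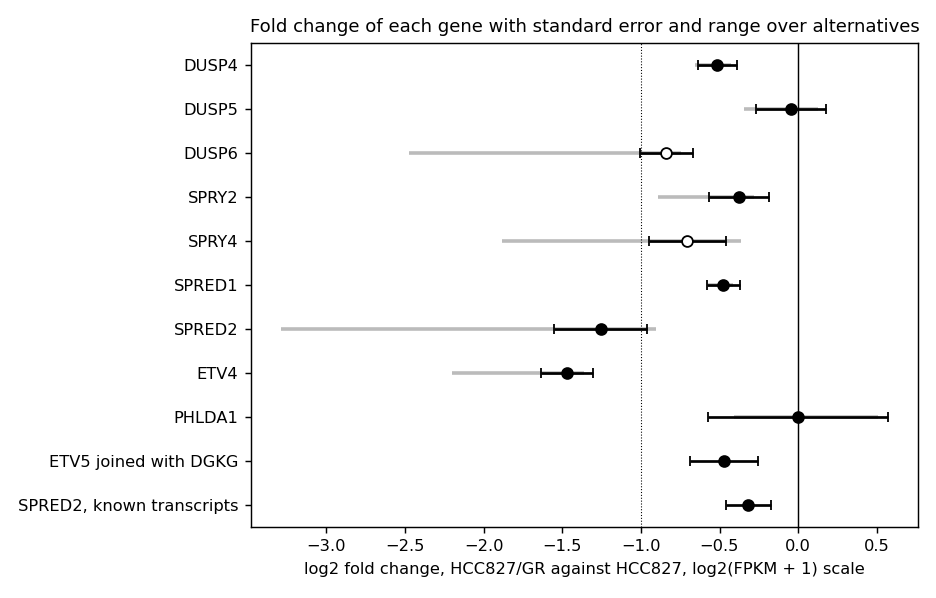
The horizontal axis gives the log2 fold change of HCC827/GR against HCC827, from log2(FPKM + 1), for each gene and for the joined ETV5 and the annotated SPRED2 entries. Points are the fitted values, black bars 1 standard error, grey bars the range over the alternatives with a test, open points the genes fitted with no limit on low values, and the dotted line marks a 2-fold decrease. ETV4 at -1.47 lies furthest to the left and DUSP5 and PHLDA1 lie at 0 within their standard error.

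By level per transcript length, the order of the genes in HCC827/GR cells was PHLDA1, DUSP5, SPRED1, DUSP4, ETV4, SPRY2, SPRED2, SPRY4 and DUSP6. Neighbours in this order whose libraries overlapped were DUSP5 and SPRED1, and each pair from ETV4 down to DUSP6. In HCC827 cells the order was PHLDA1, SPRED1, DUSP4, ETV4, DUSP5, SPRED2, DUSP6, SPRY4 and SPRY2, and the overlapping neighbours were DUSP4 with ETV4, ETV4 with DUSP5, DUSP6 with SPRY4 and SPRY4 with SPRY2. ETV4 stood beside DUSP4 and DUSP5 in the parental cells and under both in the resistant cells, where its highest library (1.1 FPKM) was below the lowest DUSP4 library (2.15 FPKM). SPRED2 is placed in both orders by its chosen entry of 1 assembled transcript. The entry with its annotated transcripts averaged 3.55 FPKM in HCC827/GR and 4.64 FPKM in HCC827 cells, so the place of SPRED2 depends on the entry.

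The other genes of the pathway were examined in 6 lists by role, with 63 genes, of which 57 were tested. Of these, 7 rose and 4 fell at an adjusted p under 0.05 and 46 did not pass, where 5.26% of all entries tested were higher and 5.71% lower. With a library-size covariate in the fit 1 of these 11 calls was left, that of EGFR. The median log2 fold change of the 57 genes was 0.09, and that of all entries tested was 0.0014.

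The other dual-specificity phosphatases that passed the test were higher in the resistant cells. Of 7 genes 6 were tested, 3 rose and none fell, and the median log2 fold change was 0.63. DUSP1, a nuclear phosphatase of p38, JNK and ERK that is induced by many stimuli, rose with 9.53, 9.55 and 9.5 FPKM in HCC827/GR and 2.33 and 2.97 FPKM in HCC827 libraries. The 3 resistant libraries were nearly equal, and the log2 fold change came to 1.53 (SE 0.11 and adjusted p = 0.00521), and the adjusted p stayed under 0.05 with each library left out. DUSP8, which acts mainly on p38 and JNK, had 2.02, 2.59 and 1.84 FPKM against 0.517 and 0.546 FPKM (log2 fold change 1.03, SE 0.14, adjusted p = 0.0189). DUSP9, a cytoplasmic relative of DUSP6, had 1.97, 1.4 and 1.93 FPKM against 0.47 and 0.519 FPKM (log2 fold change 0.88, SE 0.14, adjusted p = 0.0287). With an HCC827 mean of 0.495 FPKM, DUSP9 reached the limit on low values only through HCC827/GR. DUSP8 and DUSP9 had the reverse fitted direction of DUSP4 and DUSP6, neither of which passed. With single libraries left out the adjusted p reached 0.103 for DUSP8, which was called only without HCC827/GR replicate 3, and 0.127 for DUSP9, which was called only without HCC827/GR replicate 2. DUSP7, DUSP10 and DUSP16 had log2 fold changes between 0.21 and 0.38 and did not pass, and DUSP2 was under the limit, at 0.0235 FPKM or less in the resistant and 0.222 and 0.129 FPKM in the parental libraries.

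Among 10 other feedback inhibitors of the route, 1 rose, 1 fell and 8 did not pass, with a median log2 fold change of -0.08. LRIG1, a membrane protein that promotes degradation of EGFR and related receptors, rose from 0.217 and 0.296 FPKM in HCC827 to 1.74, 1.59 and 2.51 FPKM in HCC827/GR libraries (log2 fold change 1.22, SE 0.17, adjusted p = 0.0208). It reached the limit on low values only through HCC827/GR, as its HCC827 mean was 0.256 FPKM. RASA1, a GTPase-activating protein that switches RAS off, fell from 19.7 and 15.3 FPKM to 10.4, 9.72 and 11 FPKM, a log2 fold change of -0.69 (adjusted p = 0.044). Leaving out single libraries took LRIG1 up to 0.112, with its call kept only without HCC827/GR replicate 3, and RASA1 to between 0.0619 and 0.128, so each library was needed for RASA1. ERRFI1, an inhibitor of the EGFR kinase domain that was singled out after its values were seen, had the largest difference of the list without passing, with 12.7, 3.28 and 3.15 FPKM in HCC827/GR against 37.9 and 35.4 FPKM in HCC827 libraries (log2 fold change -2.59, adjusted p = 0.0602). SPRY1, named here beside SPRY2 and SPRY4, had 0.943, 0.937 and 1.32 FPKM against 1.52 and 1.66 FPKM with no overlap and a log2 fold change of -0.33 (adjusted p = 0.204), and SPRY3 and SPRED3 had overlapping groups.

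Other transcripts that ERK activity is known to raise did not share 1 direction. Of 11 genes 10 were tested, 1 rose, 1 fell and 8 did not pass, with a median log2 fold change of 0.11. ETV1, the third factor of the PEA3 group with ETV4 and ETV5, had 0.65, 0.848 and 0.897 FPKM in HCC827/GR and 4.57 and 2.33 FPKM in HCC827 libraries. It fell by 1.26 on the log2 scale (SE 0.25, adjusted p = 0.0418), although the call held in only 6 of 15 alternatives and, with a library left out, only without HCC827 replicate 3, with an adjusted p of up to 0.123. LIF, a cytokine, rose from 6.48 and 7.74 FPKM to 14.4, 16.4 and 16.1 FPKM, a log2 fold change of 1.04 (adjusted p = 0.0124), and lost its call without HCC827/GR replicate 1 or 2 or HCC827 replicate 2, with values up to 0.066. CCND1, which encodes cyclin D1, had 9.56, 11.2 and 19.9 FPKM in HCC827/GR and 19.1 and 21.2 FPKM in HCC827 libraries, so its groups overlapped (log2 fold change -0.60, adjusted p = 0.307). The ephrin receptor genes EPHA2 and EPHA4, often scored with DUSP6 and SPRY4 as ERK readouts, were at 26.2, 28.6 and 31.6 against 23.5 and 25.7 FPKM, and at 0.992, 0.634 and 1.04 against 0.337 and 0.311 FPKM. Neither EPHA2 nor EPHA4 passed, at 0.22 (adjusted p = 0.315) and 0.51 (adjusted p = 0.127) in log2 fold change. For each, the HCC827/GR libraries lay above the HCC827 ones, an order whose share over all entries is not given here. EPHA4, with an HCC827 mean of 0.324 FPKM, reached the limit on low values only through HCC827/GR.

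In the RAS-ERK cascade itself no tested gene was called. Of 17 genes 15 were tested, KSR1 and NRAS had no entry of their name, and the log2 fold changes ran from -0.75 for the phosphatase PTPN11 to 0.28 for the exchange factor SOS1, with a median of 0.06. None of the 15 passed an adjusted p of 0.05 with limma, where 11.0% of all entries tested passed in either direction. With so few genes tested, this is not read as a result about the cascade. PTPN11 and the adaptor GAB1 were the ones under 0.05 before adjustment (adjusted p = 0.154 and 0.138). PTPN11, which encodes the phosphatase SHP2 needed for RAS activation by receptors, had 38.7, 23.3 and 40.2 FPKM in HCC827/GR against 57.5 and 55.6 FPKM in HCC827 libraries. GAB1, a docking protein for SHP2, had 1.65, 0.785 and 1.28 FPKM against 2.09 and 3.18 FPKM. MAPK3, which encodes ERK1, had 4.47, 5.3 and 5.14 FPKM against 4.43 and 5.31 FPKM, so its groups overlapped. PTPN11, GAB1 and MAPK3 were named after their values were seen.

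Of 11 nuclear factors and kinases below ERK 10 were tested, 1 fell, none rose and 9 did not pass, with a median log2 fold change of 0.09. ELK3, a ternary complex factor of the ETS family that ERK phosphorylates, fell from 25.3 and 23.4 FPKM in HCC827 to 12.6, 9.81 and 11.6 FPKM in HCC827/GR libraries (log2 fold change -1.04, SE 0.13, adjusted p = 0.0157). With single libraries left out its adjusted p was between 0.0468 and 0.0952, and the call held only without HCC827/GR replicate 2.

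At the top of the pathway the receptor kinases held the largest called changes of the 6 lists. Of 7 listed genes 6 were tested, ERBB3 had no entry of its name, 2 rose, 1 fell and 3 did not pass. EGFR, at chr7:55019021-55211628 and the mutated driver of this line, had 7.82, 5.78 and 3.52 FPKM in HCC827/GR and 70.8 and 56.4 FPKM in HCC827 libraries. The parental mean was 11.1 times the resistant mean, and the log2 fold change came to -3.31 (SE 0.31 and adjusted p = 0.00926). A second entry named EGFR, without an annotated transcript, had a log2 fold change of -2.20. FGFR1, a fibroblast growth factor receptor, rose from 0.935 and 1.59 FPKM to 14.2, 12 and 18.6 FPKM (log2 fold change 2.81, SE 0.23, adjusted p = 0.00661). IGF1R, the receptor of insulin-like growth factor, rose from 4.61 and 5.35 FPKM to 13.7, 14.3 and 9.68 FPKM (log2 fold change 1.17, SE 0.19, adjusted p = 0.0301). Without HCC827 replicate 2 or 3 the adjusted p of EGFR was above 0.05 (up to 0.0705), for FGFR1 it was 0.0501 without HCC827 replicate 2, and for IGF1R the call held only without HCC827/GR replicate 3, with an adjusted p of up to 0.149. ERBB2, MET and AXL did not pass (adjusted p = 0.423, 0.0621 and 0.0685).

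**Figure D3:**
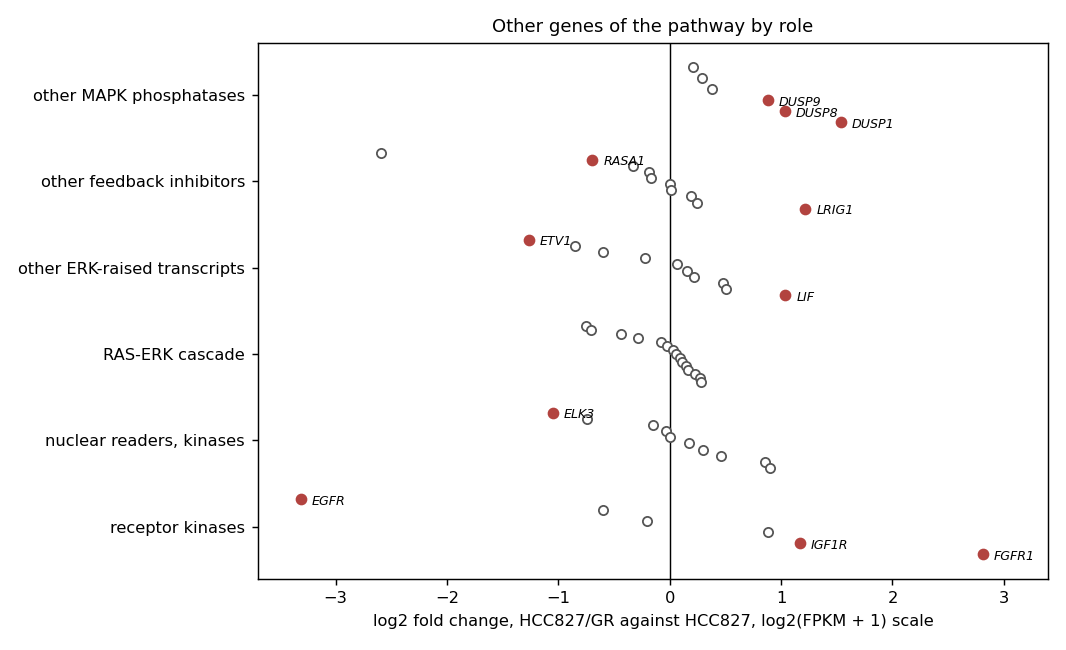
Each point is 1 of the 57 tested genes of the other pathway lists, placed by its log2 fold change of HCC827/GR against HCC827, from log2(FPKM + 1), and by role on the vertical axis, where the small vertical steps within a role only keep points apart. Filled points passed an adjusted p of 0.05 and are named. The RAS-ERK cascade has no filled point, and its genes lie between -0.75 and 0.28.

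**Figure D4:**
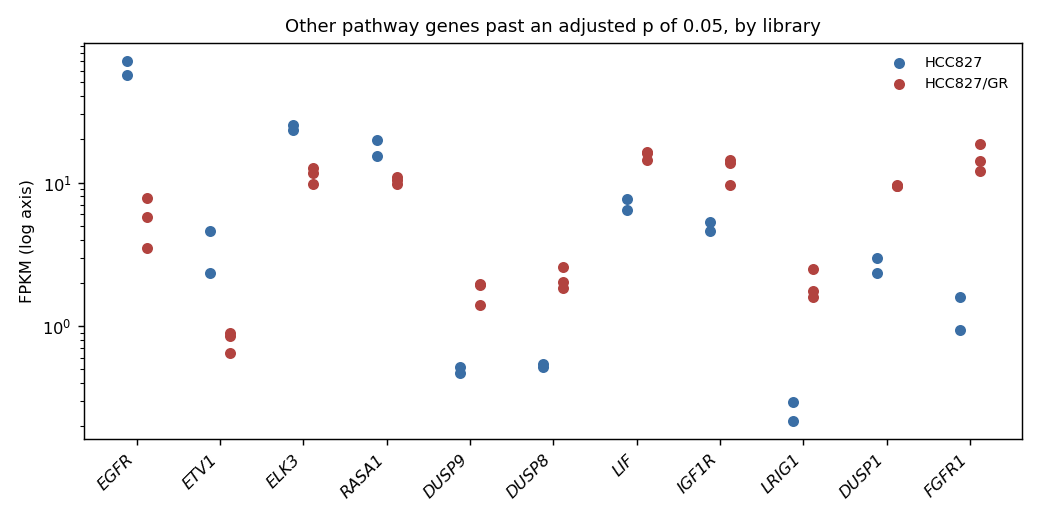
FPKM on a log axis is plotted for every library of the 11 pathway genes past an adjusted p of 0.05, ordered from the most lowered to the most raised on the log2(FPKM + 1) scale. EGFR, ETV1, ELK3 and RASA1 have both HCC827 libraries above all HCC827/GR libraries, and the other 7 genes have the reverse.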

How the data were processed

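Total RNA of the HCC827/GR (3) and HCC827 (2) samples was sequenced. The authors deposited 1 FPKM value per entry and library, made, per the study's methods and the submitters' processing notes, by trimming with cutadapt, quality checks with FastQC, mapping with Bowtie2 and TopHat2 and assembly with StringTie. The notes name genome build hg18, while positions here are those of GENCODE release 29 (GRCh38), to which 135164 of the 135299 Ensembl transcripts listed in the table could be assigned. Tool versions are not given in the sources used here. The labels describe a small-RNA library and the methods an mRNA library, which is not settled here. Of the FPKM columns, 1 matched no sample and was not used. The table's columns of the authors' own comparison (fold changes and p-values) were not used. Assembly can split a gene into several entries or join neighbours, as for SPRED2 and ETV5.

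Here limma 3.58.1 in R 4.3.3 (lmFit, eBayes with trend, two-sided) was applied to log2(FPKM + 1) of the 16189 entries averaging 0.5 FPKM or more, with Benjamini-Hochberg adjustment over all of them, after a check on simulated data. The groups came from the sample titles. Counting error could not be given without read counts. Alternatives were a pseudocount of 0.1, a limit of 1 FPKM or none on the mean, quantile normalization, median-ratio scaling, no trend, a library-size covariate as in Ballgown, a replicate block, summing the entries of a symbol, the ratio of mean FPKM, and fits that each lacked 1 library. A limit of 0.25 FPKM, and the alternatives with no limit for DUSP6 and SPRY4, were added after seeing the data. The members, the lists and the tests were chosen with earlier results of these data known. Named genes were the 10 members, up to 4 genes per list past an adjusted p of 0.05 by size of change, EGFR, CCND1, EPHA2 and EPHA4, and the 5 entries nearest in pattern to DUSP6. Promoter sequences were credited to RefSeq (GRCh38.p14). Python 3.11.15 with pandas 2.3.3, numpy 2.4.6 and matplotlib 3.10.9 was used for the remaining steps and the plots.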

Additional observations from a re-analysis of the deposited data

How the results depend on the processing

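Over the alternatives, 269 values of single genes kept their direction and side of the threshold or moved within the replicate spread, 71 lost a call, 13 moved and 7 reversed. The reversed ones were DUSP5, at 0.13 with the replicate block, 0.13 without HCC827/GR replicate 1 and 0.08 without HCC827 replicate 2, and PHLDA1, at 0.01 with median-ratio scaling, 0.31 with the library-size covariate, 0.51 without HCC827/GR replicate 2 and 0.25 without HCC827 replicate 2. With single libraries left out the log2 fold change of DUSP5 ran from -0.20 to 0.13 and that of PHLDA1 from -0.41 to 0.51. The number of feedback and output genes called by adjusted p (1) was 0 with the library-size covariate, 0 with the replicate block and between 0 and 1 with an HCC827/GR library left out. An unadjusted p under 0.05 (limma) was reached by 4 of 7 in each of the covariate and block fits. Over all 16189 entries it was reached by 3410 and 3545, in either direction. At a fold of 2 and p under 0.05 the count (2) was 1 with a mean of at least 1 FPKM, where SPRED2 is not tested, 1 with the library-size covariate, 1 with entries summed and between 1 and 2 with a library left out. Calls over all entries (1775) came to 145 with the library-size covariate, 0 with the replicate block (3545 at an unadjusted p under 0.05, limma) and between 432 and 884 with a library left out, where fewer samples are fitted. For the 57 pathway genes the 11 calls became 6 with no limit on low values, 1 with the library-size covariate, 0 with the replicate block (21 at an unadjusted p under 0.05) and between 1 and 7 with a library left out. Apart from the fits on fewer samples, the causes were not tested. The block used replicate numbers 2 and 3 of both groups, and HCC827/GR replicate 1 had no partner. The block estimates thus equal those without that library, as for ETV4 at -1.46. They rest on fewer libraries, and a call lost under the block is no measure of a weaker effect. Deviations of same-numbered libraries correlated by 0.033 and 0.015, which cannot show whether those libraries were paired. The median log2 fold change of all entries stayed between -0.0114 and 0.0224. Read depth is unknown, which limits the values of DUSP6, SPRY2 and SPRY4 near or under 1 FPKM most.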

Other observations

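Some of the tested pathway genes varied widely within a group, and they were picked out with their values in view. IER3, an immediate early gene, stood at 36.5, 6.44 and 0.798 FPKM in replicates 1, 2 and 3 of HCC827/GR and at 33 and 4.99 FPKM in the HCC827 libraries. PEBP1, which encodes the RAF inhibitor RKIP, had 72.1, 18.6 and 70.8 FPKM and 72.3 and 20.4 FPKM. DUSP7 had 4.42, 0.801 and 4.84 FPKM and 0.874 and 3.68 FPKM. ETS1 had 3.62, 4.59 and 21 FPKM in HCC827/GR and 3.02 and 3.88 FPKM in HCC827 libraries, so only HCC827/GR replicate 3 stood high.

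FOS, under the limit on low values, had 0.183, 0.0529 and 0.171 FPKM in HCC827/GR and 0.424 and 0.573 FPKM in HCC827 libraries, a difference of -0.40 on the log2 scale with an adjusted p of 0.131 in the fit with no limit.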
